A study of Mus musculus with 3143 samples.

Results

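The genes described here are 10 chains of the kidney's basement membranes, chosen by symbol from the deposited count table. They are the type IV collagen genes Col4a1, Col4a2, Col4a3, Col4a4, Col4a5 and Col4a6 and the laminin genes Lama5, Lamb1, Lamb2 and Lamc1, and all 10 symbols were found among the 46517 gene names of the table. Their level was followed across the cell types of the glomerular fraction of mouse kidney, and between cells labelled IgAN and cells labelled Control. IgAN, or IgA nephropathy, is a disease in which IgA is deposited in the mesangium of the glomerulus. The labels give no agent, genotype or time by which it was produced. All cells came from adult C57BL/6 mice, whose dissociated glomeruli were stained with a viability dye and sorted 1 cell to a well, and the full length of their polyadenylated RNA was read by Smart-seq2. The 1798 IgAN cells filled plates 313, 315, 316, 318, 322 and 325, and the 1345 Control cells plates 314, 317, 321 and 326. The labels name no animals, so each group counts as 1 sample and no p-value is given. Since every plate held a single group, plate and group cannot be told apart.

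Type IV collagen is the network-forming collagen of basement membranes. Its chains assemble into trimers inside the cell, either from Col4a1 and Col4a2, from Col4a3, Col4a4 and Col4a5, or from Col4a5 and Col4a6. In the mature glomerular basement membrane the network of Col4a3, Col4a4 and Col4a5 comes from podocytes, the epithelial cells that cover the capillaries, and mutations of these genes in people cause Alport syndrome. Laminins are trimers of an alpha, a beta and a gamma chain, and the main laminin of the mature glomerular basement membrane holds the chains of Lama5, Lamb2 and Lamc1. During maturation of that membrane Lamb1 gives way to Lamb2, whose loss in people causes Pierson syndrome, and the mesangial matrix keeps Col4a1 and Col4a2.

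The type IV collagen genes lie in head-to-head pairs, each pair read in opposite directions from one shared stretch of DNA. In the GENCODE vM21 annotation of GRCm38, Col4a1 (chr8:11198423-11312826, minus strand) and Col4a2 (chr8:11312805-11449287, plus strand) start 21 bp apart and share 22 bases. Col4a3 (chr1:82586921-82722059, plus strand) and Col4a4 (chr1:82448423-82586849, minus strand) start 72 bp apart with 71 bases between them. Col4a5 (chrX:141475385-141689234, plus strand) and Col4a6 (chrX:141165403-141474076, minus strand) start 1309 bp apart. The laminin genes are single: Lama5 (chr2:180176373-180225859, minus strand), Lamb1 (chr12:31265234-31329644, plus strand), Lamb2 (chr9:108479736-108490530, plus strand) and Lamc1 (chr1:153218922-153332786, minus strand).

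The start regions of the first and second pair are shown because the genes of these pairs had the most alike patterns over classes and plates among the members, as given at the end. Each window holds 250 bases before and 50 bases after the start of the named gene, from RefSeq on GRCm38.p6. The Col4a2 window is chr8:11312555-11312854 on the plus strand, and its capitals mark the 22 bases that both genes of the pair share. The Col4a4 window is chr1:82586800-82587099 on the minus strand, and its capitals mark the 71 bases between both starts.
Col4a2: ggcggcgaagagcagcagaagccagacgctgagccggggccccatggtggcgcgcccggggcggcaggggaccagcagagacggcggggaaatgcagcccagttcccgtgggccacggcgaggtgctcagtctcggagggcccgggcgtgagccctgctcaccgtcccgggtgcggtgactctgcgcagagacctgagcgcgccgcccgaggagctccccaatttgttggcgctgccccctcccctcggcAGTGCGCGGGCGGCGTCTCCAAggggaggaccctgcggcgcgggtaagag
Col4a4: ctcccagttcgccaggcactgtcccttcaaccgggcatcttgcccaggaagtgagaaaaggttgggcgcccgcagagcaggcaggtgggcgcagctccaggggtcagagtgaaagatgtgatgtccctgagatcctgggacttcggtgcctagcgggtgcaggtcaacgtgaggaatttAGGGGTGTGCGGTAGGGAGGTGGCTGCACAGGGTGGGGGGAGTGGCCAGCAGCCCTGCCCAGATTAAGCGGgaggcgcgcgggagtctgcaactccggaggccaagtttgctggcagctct
The Col4a2 window held 3 matches to GGGCGG and 1 to CCAAT, searched on both strands, and 73.7% of its bases were G or C. The Col4a4 window held 0 matches to either motif, and 63.3% of its bases were G or C. Of 32851 windows of the same length, 35.7% held GGGCGG and 37.4% held CCAAT, and their mean share of G and C was 53.8%. The letters TATAAA, present in 13.6% of all windows, were in none of the 8 member windows found. A match is a description of these letters only.

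Depth ran from 50365 to 1135415 whole reads in a cell, and its median was 231222 in IgAN and 241543 in Control cells. The members took 0.233% of all reads. Levels are given as CPM, the reads of a gene per 1000000 reads summed over the cells of a class, and different genes are compared only as CPM per kb of annotated exon. Cells were clustered without the members, and clusters were named from fixed markers, so each name is written with "like". Endothelial-like cells numbered 973 in IgAN and 560 in Control, podocyte-like cells 38 in IgAN and 145 in Control, and mesangial-like cells 115 in IgAN and 52 in Control. Parietal epithelial-like cells numbered 53 in IgAN and 27 in Control, proximal tubule-like cells 105 in IgAN and 85 in Control, and the class named distal tubule or collecting duct 58 in IgAN and 46 in Control. There were also 33 smooth muscle- or renin-like cells, 656 leukocytes and 197 cells in clusters left without a name. Podocyte-like cells made up 2.11% of IgAN and 10.8% of Control cells. Endothelial markers summed to 5172 CPM in mesangial-like IgAN cells and 4478 CPM in mesangial-like Control cells, and their part in the mesangial values was not tested. The endothelial-like cells of each group came mostly from different clusters, with 351, 320 and 200 IgAN cells in clusters 1, 2 and 3 and 439 Control cells in cluster 0.

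Col4a3, Col4a4 and Col4a5, the chains of the mature glomerular network, were genes of the podocyte-like cells. Per kb of exon, Col4a3 stood at 264 CPM, Col4a4 at 209 CPM and Col4a5 at 82.5 CPM in this class, against 1.6 CPM for Col4a1 and 1.7 CPM for Col4a2. The podocyte-like class held 86.8% of all Col4a3 reads, 82.2% of Col4a4 reads and 71.6% of Col4a5 reads, although it was 183 of 3143 cells. The 3 chains made up 99.2% of type IV collagen per kb in podocyte-like cells, 28.4% in parietal epithelial-like cells, 1.43% in mesangial-like cells and 0.692% in endothelial-like cells. Per kb, the ratio of Col4a3 to Col4a4 was 1.04 in podocyte-like IgAN cells (0.94 to 1.92 over plates) and 1.33 in Control cells (1.20 to 1.43).

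**Figure D1:**
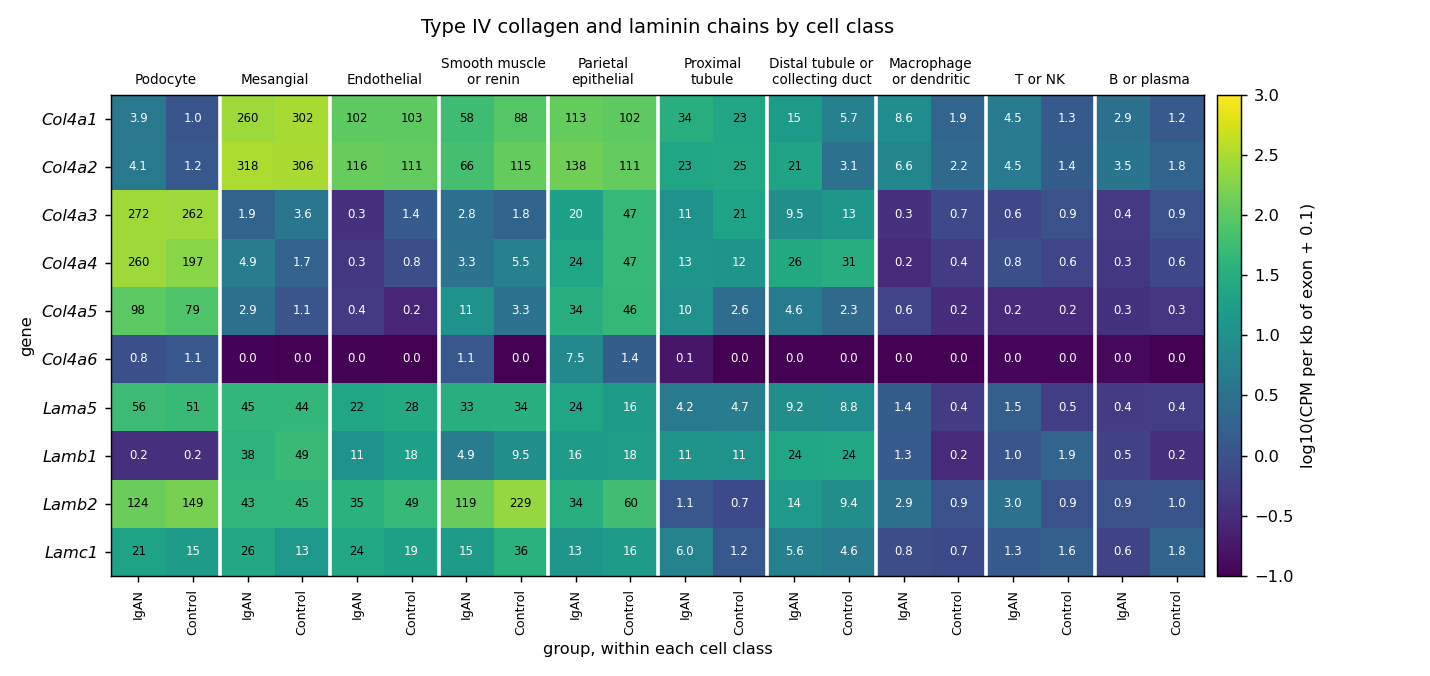
Level of each chain (rows) in each cell class, with IgAN left of Control (columns), as CPM per kb of exon, printed in each square and coloured on a log10 scale with 0.1 added. Col4a3, Col4a4 and Col4a5 are highest in podocyte-like cells, Col4a1 and Col4a2 in mesangial-like cells and Col4a6 in parietal epithelial-like cells. The Col4a6 order was not resolved over plates, with parietal epithelial-like above podocyte-like cells on 4 of 6.

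At least 10 reads of Col4a3 were found in 98.4% of podocyte-like cells, of Col4a4 in 97.3% and of Col4a5 in 77.6%. All 3 chains together reached 10 reads in 139 of 183 podocyte-like cells (76.0%, exact binomial 95% interval 69.1% to 82.0%) and in 0 of 1533 endothelial-like cells, which allows a share of up to 0.240%. Cells with 1 of Col4a3 and Col4a4 and not the other were rare: 177 podocyte-like cells had both, 3 had Col4a3 alone, 1 had Col4a4 alone and 2 had neither. Across these 183 cells the Spearman correlation of their CPM was 0.55, and that of Col4a3 with Col4a5 was 0.38. Cells share plates and depth, so these are descriptions.

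Levels of this network in podocyte-like cells lay within the spread of plates between IgAN and Control. Only plates with at least 5 cells of a class are given, which for podocyte-like cells were 3 IgAN and 4 Control plates. Col4a3 had 2530.2, 3436 and 2670.2 CPM on the IgAN plates, against 2656, 2148, 2603 and 2949 CPM on the Control plates. Col4a4 had 2861, 3825 and 1479 CPM on the IgAN plates, against 2349, 1602, 2012 and 2240.1 CPM on the Control plates. Col4a5 had 837, 547 and 825 CPM on the IgAN plates, against 555, 395, 401 and 685 CPM on the Control plates. The plates of both groups overlapped for each of these genes. The log2 difference, IgAN minus Control with 1 CPM added, was 0.05 for Col4a3, 0.40 for Col4a4 and 0.31 for Col4a5.

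The parietal epithelium, the lining of Bowman's capsule, came next in order for Col4a3 and Col4a5. For Col4a4 the parietal class, at 329 CPM, and the distal tubule or collecting duct class, at 299.7 CPM, did not differ beyond their spread, with the parietal class higher on 3 of 6 plates. Col4a3 was 9.37-fold and Col4a4 6.73-fold higher in podocyte-like than in parietal epithelial-like cells, on 6 of 6 plates with both classes, and Col4a5 was 2.19-fold higher on 5 of 6. Col4a5 was found with at least 10 reads in 63.8% of parietal epithelial-like cells, Col4a4 in 56.2% and Col4a3 in 43.8%. All 3 together were found in 11 of 53 IgAN and 12 of 27 Control cells. Podocyte markers summed to 1687 CPM in parietal epithelial-like IgAN cells and 2451 CPM in Control cells, and their part in these levels was not tested.

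In the parietal epithelial-like class Col4a3 had 195 CPM in IgAN and 468 CPM in Control cells, a log2 difference of -1.26. Its plates ran from 1.01 through a median of 96.7 to 378 CPM in IgAN, and were 186, 524 and 983 CPM in Control. Col4a4 had 250.1 CPM in IgAN and 502 CPM in Control cells, with plates of 56.8 to 494 CPM in IgAN and 198 to 1174 CPM in Control. The plates overlapped for both genes, so neither met the call rule that is given below.

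In distal nephron cells Col4a4 exceeded Col4a3. Col4a4 had 299.7 CPM in the distal class and 129.8 CPM in proximal tubule-like cells, and was higher in the distal class on 6 of 6 plates. In cluster 20, led by Calb1, Slc12a3 and Pvalb, genes of the distal convoluted tubule, the ratio of Col4a4 to Col4a3 per kb was 5.23. It was 1.88 in cluster 14, led by Slc12a1 and Umod, genes of the thick ascending limb, and 0.97 in the main proximal cluster, led by Slc34a1 and Miox. In a small cluster of 20 proximal tubule-like cells, led by Aadat and Slco1a6, it was 0.29. Col4a4 alone reached 10 reads in 12 of the 32 cells of cluster 20 and Col4a3 alone in 2. These are single clusters of few cells, and the ratio is a description.

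Col4a1 and Col4a2, the chains of most basement membranes, were highest in mesangial-like cells and low in podocyte-like cells. Per kb, mesangial-like cells held 314 CPM of Col4a2 and 274 CPM of Col4a1, endothelial-like cells 114 and 103 CPM, and parietal epithelial-like cells 129 and 110 CPM. Col4a1 was 2.67-fold and Col4a2 2.75-fold higher in mesangial-like than in endothelial-like cells, on 9 of 9 plates for both genes. Parietal epithelial-like and endothelial-like cells were neighbours that did not differ beyond their spread, with the parietal class higher on 5 of 8 plates for each gene. Of all Col4a1 reads, 67.3% lay in the endothelial-like class, which had the most cells, and 17.2% in the mesangial-like class. Both chains together reached 10 reads in 152 of 167 mesangial-like cells (91.0%), in 1079 of 1533 endothelial-like cells (70.4%) and in 2 of 183 podocyte-like cells. In the 84 mesangial-like cells lowest in markers of the other main classes, which still held 3598 CPM of endothelial markers, Col4a1 was at 1905 CPM and Col4a2 at 2032 CPM.

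Chains of both networks were found together most often in parietal epithelial-like cells. In 23 of 80 of these cells Col4a1, Col4a2, Col4a3, Col4a4 and Col4a5 all reached 10 reads, against 2 of 183 podocyte-like and 5 of 167 mesangial-like cells. Mesangial markers summed to 2103 CPM in IgAN and 2144 CPM in Control cells of this class, beside the podocyte markers given above. The part of these in the shared cells was not tested. Parietal epithelial-like cells also held 67.1% of the 1764 reads of Col4a6, whose chain pairs with Col4a5 in the basement membrane of Bowman's capsule. Col4a6 had 59.8 CPM in parietal epithelial-like IgAN cells and 11.2 CPM in Control cells. Its IgAN plates ran from 0.786 through a median of 51.0 to 117 CPM, and its 3 Control plates had 0, 0 and 27.1 CPM. At least 10 reads were found in 11 of 53 IgAN and 1 of 27 Control cells, but the lowest IgAN plate lay below the highest Control plate, so the difference was not called. Outside this class, at least 10 reads of Col4a6 were found in 6 podocyte-like cells, 2 smooth muscle- or renin-like cells, 1 proximal tubule-like cell and 1 cell of an unnamed cluster.

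In mesangial-like cells the levels of both chains overlapped between IgAN and Control. Col4a1 ran from 1132 through a median of 2005 to 2446 CPM over 6 IgAN plates, and had 2064, 2365 and 2522 CPM on 3 Control plates. Col4a2 ran from 1349 through 2048 to 2842 CPM on the IgAN plates, and had 1916, 2077 and 2301 CPM on the Control plates. The log2 differences were -0.22 for Col4a1 and 0.06 for Col4a2, with overlapping plates. Plate 325 had the lowest mesangial-like level of both chains.

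In endothelial-like cells the levels of both chains overlapped as well. Col4a1 ran from 609 through a median of 733 to 1051 CPM on the IgAN plates, and had 630.5, 874, 620.3 and 842 CPM on the Control plates. Col4a2 ran from 475 through 699 to 1142 CPM on the IgAN plates, and had 665, 747, 557 and 837 CPM on the Control plates. The log2 differences of -0.01 and 0.07 lay well within the spread of plates.

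**Figure D2:**
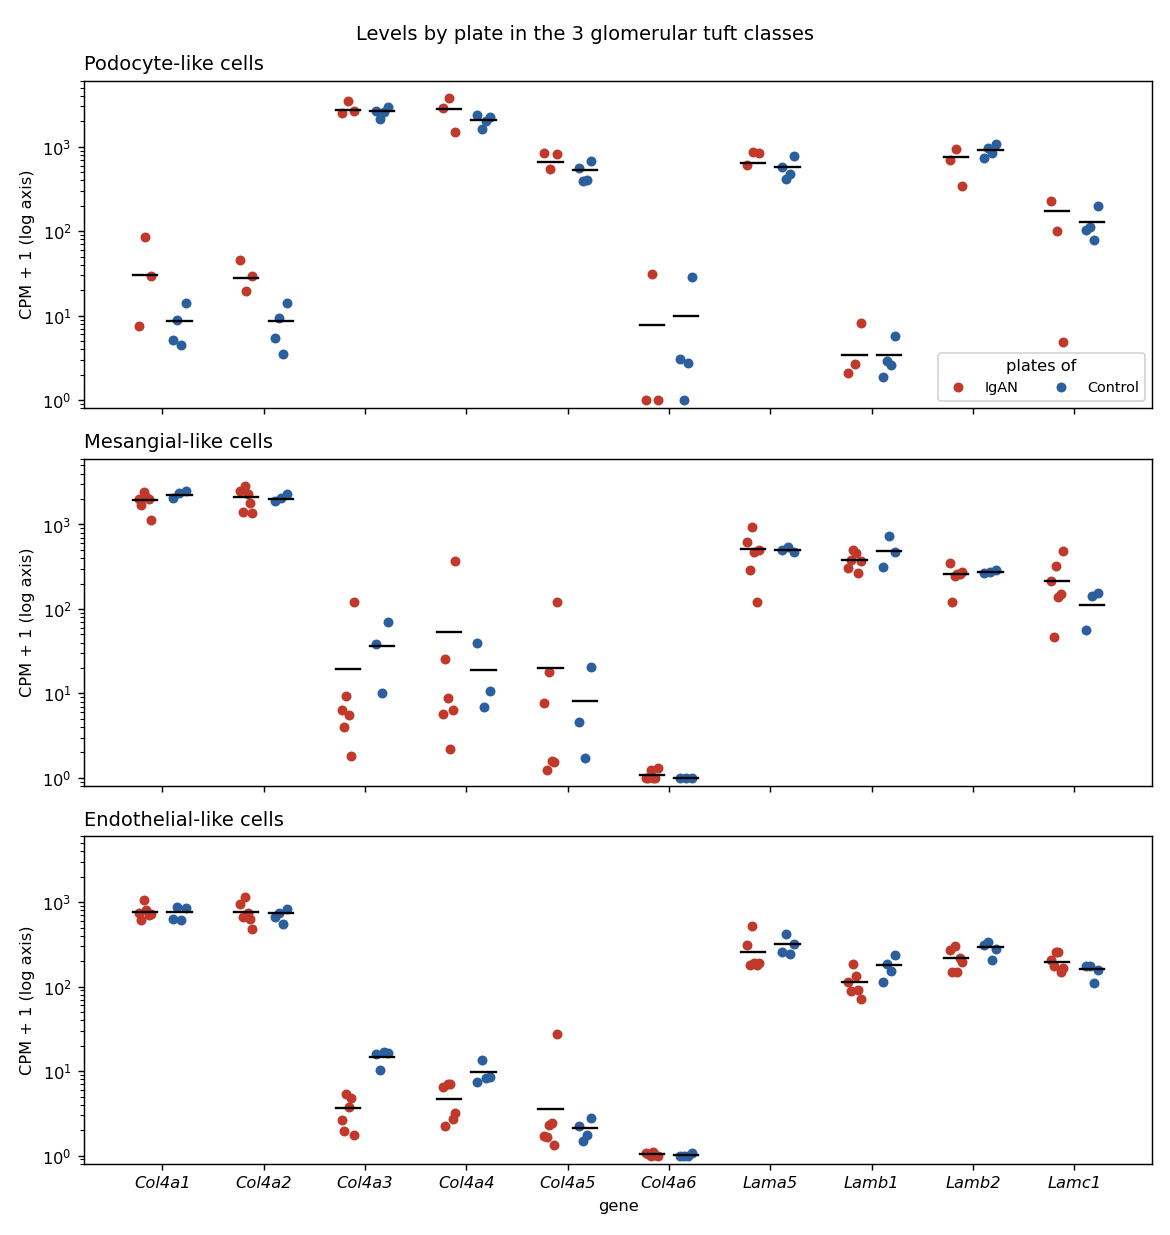
CPM plus 1 (log axis) of the 10 chains in podocyte-, mesangial- and endothelial-like cells, 1 point for each plate with at least 5 cells of the class, IgAN left of Control, with a line at the summed level of the group. Points of both groups overlap, except for Col4a2 in podocyte-like cells and Col4a3 and Col4a4 in endothelial-like cells.

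A difference between IgAN and Control was called when a gene had at least 10 CPM and a read in at least 10% of the cells of 1 group, differed at least 2-fold, and had no overlap between the plates of both groups. Of the measured members, 1 of 8 was called in podocyte-like cells, where 6.45% of 9576 measured genes were called. In mesangial-like cells 0 of 9 were called, against 2.55% of all measured genes. In endothelial-like cells 1 of 7 was called, against 1.46%, and in parietal epithelial-like cells 0 of 10, against 3.54%. Proximal tubule-like cells had 0 of 8 called, against 4.4%, and the distal class 0 of 9, against 5.66%. Among leukocytes, where the members were low, 0 of 5 were called in macrophage- or dendritic-like cells (1.18% of all genes), 0 of 6 in T- or NK-like cells (1.69%) and 0 of 3 in B- or plasma-like cells (10.4%). Groups of so few plates and cells limit what could be called, and a single call among so few members says little about the set.

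The median log2 difference of the measured members was 0.36 in podocyte-like, 0.02 in mesangial-like, -0.34 in endothelial-like and -0.21 in parietal epithelial-like cells. Over all measured genes the medians were -0.06, 0.01, 0.02 and 0.08 in the same classes. The members' median was 0.09 in proximal tubule-like cells and 0.29 in the distal class, against 0.15 and 0.11 for all measured genes. In the leukocytes, where few members were measured and at low levels, it was larger. It was 1.64 in macrophage- or dendritic-like, 1.54 in T- or NK-like and 0.94 in B- or plasma-like cells, against 0.05, 0.04 and -0.18 for all measured genes.

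The call in podocyte-like cells was Col4a2, the partner of Col4a1, at a low level. It had 45.1, 18.5 and 28.9 CPM on the IgAN plates, against 4.52, 8.38, 2.56 and 13.3 CPM on the Control plates, and every IgAN plate lay above every Control plate. Summed, it had 27.2 CPM in IgAN (exact Poisson 95% interval 24.2 to 30.6) and 7.65 CPM in Control cells (6.85 to 8.52), a log2 difference of 1.71. Few cells carried most of it. At least 10 reads were found in 6 of 38 IgAN and 3 of 145 Control cells. Those 6 cells held 206 of the 286 IgAN reads, and 1 cell alone held 144. Cells with 1 to 9 reads contributed 7.62 CPM in IgAN and 6.87 CPM in Control. The intervals cover counting error only, not this spread between cells. The call was lost when plates of at least 2 cells entered, with the difference still 1.71, when classes were set by marker score, with 1.99, and in cells low in other main markers, with 2.21. The difference was 1.12 without plate 313.

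Col4a1 had 6.64, 84.6 and 28.3 CPM on the podocyte-like IgAN plates, against 4.14, 7.88, 3.50 and 13.2 CPM on the Control plates. These overlapped, so its log2 difference of 1.81, which was 0.68 without plate 316, was not called. Without plate 313 it was 2.28 and met the rule. Markers of other cells moved with both genes. In podocyte-like cells, fibroblast markers summed to 620.3 CPM in IgAN and 102 CPM in Control, with Lum and Dpt at 0 in both, parietal epithelial markers to 693 CPM in IgAN and 335 CPM in Control, smooth muscle or renin markers to 207 CPM in IgAN and 24.3 CPM in Control, and endothelial markers to 299.5 CPM in IgAN and 224 CPM in Control. T-, NK- and B-like cells, which should lack Col4a2, held 28.4 CPM of it in IgAN and 10.4 CPM in Control. Without plate 325 the IgAN value in those lymphocytes was 22.0 CPM. The part of these in the podocyte-like values was not tested.

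The call in endothelial-like cells was Col4a3, lower in IgAN and at the edge of detection. It ran from 0.734 through a median of 2.21 to 4.38 CPM on the 6 IgAN plates, against 15.1, 9.32, 15.7 and 15.5 CPM on the Control plates, and the groups did not overlap. Summed, it had 2.69 CPM in IgAN (2.50 to 2.90) and 13.6 CPM in Control cells (13.0 to 14.2), a log2 difference of -1.98. Without endothelial cluster 3, which held 200 IgAN cells and 2 Control cells, it was -2.16. Nearly all positive cells had few reads: 282 of 973 IgAN and 394 of 560 Control cells had 1 to 9 reads, and 4 IgAN and 17 Control cells had at least 10. Those 17 Control cells held 1205 of the 2147 Control reads, and the 4 IgAN cells 199 of the 699 IgAN reads. Cells with 1 to 9 reads contributed 1.93 CPM in IgAN and 5.97 CPM in Control, both under the 10 CPM limit of the rule. When classes were set by marker score the difference was -1.76 and was not called. Col4a4, the partner of Col4a3, ran from 1.27 through 3.86 to 6.12 CPM on the IgAN plates and from 6.45 through 7.44 to 12.4 CPM on the Control plates. Its groups did not overlap either, with a log2 difference of -1.04, but it stayed under 10 CPM in both and so was not measured by the call rule.

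Podocyte markers in endothelial-like cells and the level of Col4a3 in whole plates were also lower in IgAN. Podocyte markers in endothelial-like cells summed to 106 CPM in IgAN (53.3 to 141 over plates) and 198 CPM in Control (136 to 237), with none of the 10 markers at 0. Col4a3 in T-, NK- and B-like cells had 5.65 CPM in IgAN and 8.95 CPM in Control. The IgAN value rested on 11 cells of plate 325 at 54.1 CPM, and without that plate it was 2.94 CPM. Over all cells of the plates, podocyte-like cells included, Col4a3 had 81.0 CPM in IgAN (31.4 to 167) and 359 CPM in Control (251 to 428), with the shares of podocyte-like cells given above. As a share of podocyte markers, Col4a3 was 2.54% in endothelial-like IgAN cells and 6.86% in Control cells, against 12.8% in podocyte-like IgAN cells and 11.2% in podocyte-like Control cells. The part of carried-over RNA in the endothelial difference was not tested.

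**Figure D3:**
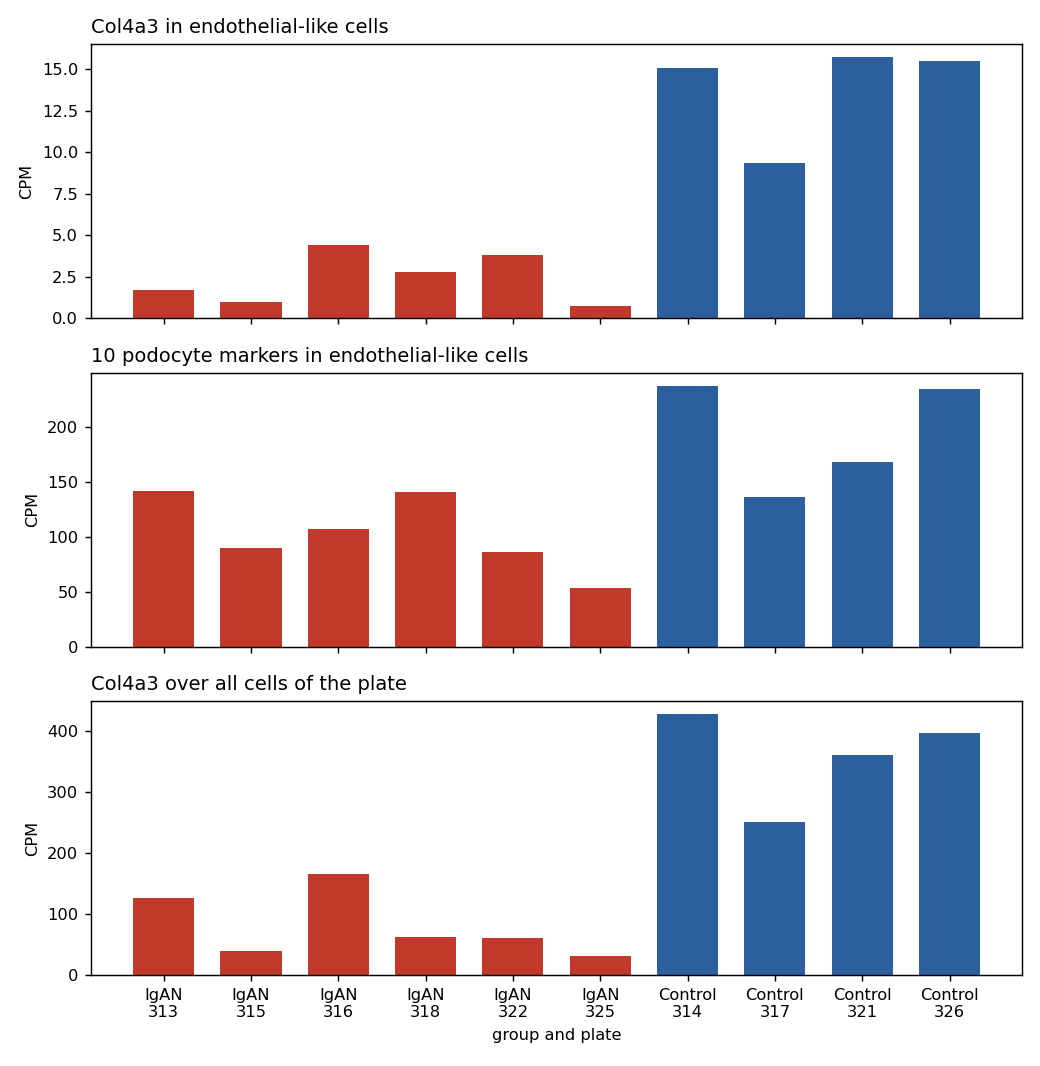
Bars give, for each plate, Col4a3 in endothelial-like cells (top), the sum of 10 podocyte markers in endothelial-like cells (middle) and Col4a3 over all cells of the plate (bottom), all in CPM, with IgAN plates left of Control plates. Endothelial-like Col4a3 lies at 0.734 to 4.38 CPM on the IgAN plates and at 9.32 to 15.7 CPM on the Control plates, and Col4a3 over all cells at 31.4 to 167 CPM on the IgAN plates and 251 to 428 CPM on the Control plates.

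Mesangial-like cells held little Col4a3, and a few cells held most of it. At least 10 reads were found in 12 of 167 cells, 7 in IgAN and 5 in Control, and these held 84.1% of the class's Col4a3 reads. Mesangial-like Col4a3 had 18.5 CPM in IgAN and 35.8 CPM in Control cells. The IgAN plates ran from 0.838 through a median of 4.98 to 118 CPM, and the Control plates had 37.2, 9.09 and 69.8 CPM. Plate 325 was the high one, and there Col4a4 had 372 CPM, Col4a5 120.5 CPM and podocyte markers 3306 CPM. The log2 difference for Col4a3 was -0.92. It was -2.71 without plate 325, where it met the call rule, and -0.27 without Control plate 326, so single plates set its size.

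Lama5, the alpha chain of most adult epithelial and vascular basement membranes, was spread over the glomerular classes. It had 590 CPM in podocyte-like, 507 CPM in mesangial-like, 377 CPM in smooth muscle- or renin-like and 279 CPM in endothelial-like cells. Podocyte-like cells were higher than endothelial-like cells on 6 of 7 plates, but higher than mesangial-like cells on only 3 of 6, so the top of this order was not resolved. In podocyte-like cells Lama5 had 613, 869 and 841 CPM on the IgAN plates, against 579, 409, 474 and 773 CPM on the Control plates. In endothelial-like cells it ran from 178 through a median of 191 to 517 CPM on the IgAN plates, and had 254, 416, 240.5 and 319 CPM on the Control plates. The groups overlapped in both classes, with log2 differences of 0.13 and -0.34.

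Lamb1 and Lamb2, the alternative beta chains, stood in very different proportions across the classes. Per kb, Lamb2 made up 99.8% of the pair in podocyte-like cells, 96.0% in smooth muscle- or renin-like cells, 74.5% in endothelial-like cells, 71.5% in parietal epithelial-like cells, 50.9% in mesangial-like cells, 33.8% in distal and 7.65% in proximal tubule-like cells. In podocyte-like cells the share was 99.8% in IgAN (98.7% to 99.9% over plates) and 99.8% in Control (99.7% to 99.9%). In mesangial-like cells it was 52.8% in IgAN (34.0% to 65.1% over plates) and 47.6% in Control (38.4% to 57.6%), and in endothelial-like cells 75.7% in IgAN (64.5% to 81.9%) and 73.0% in Control (66.0% to 81.8%). At least 10 reads of Lamb1 were found in 0.5% of podocyte-like cells, and of Lamb2 in 84.7%.

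**Figure D4:**
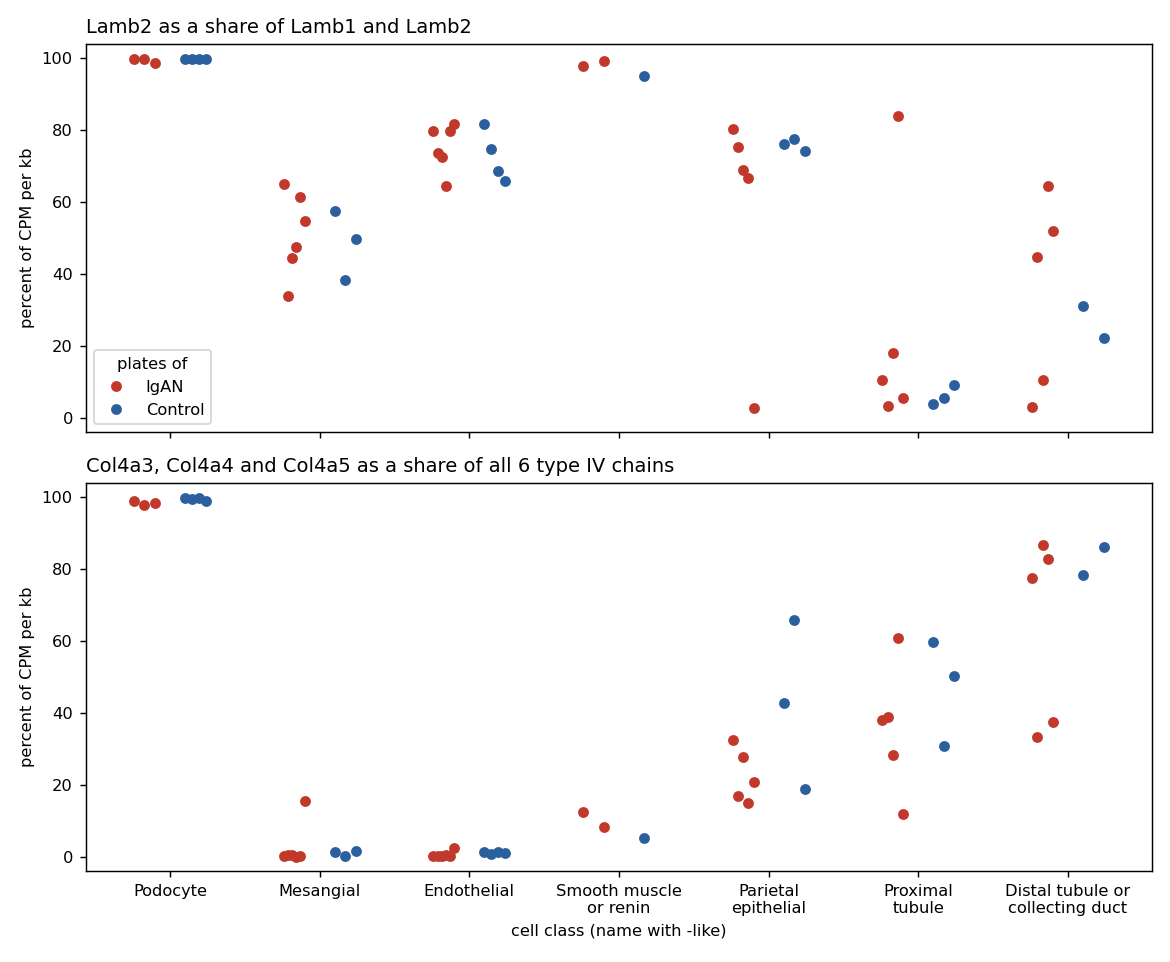
Lamb2 as a percent of Lamb1 and Lamb2 (top) and Col4a3, Col4a4 and Col4a5 as a percent of all 6 type IV collagen chains (bottom), from CPM per kb, by cell class, with 1 point for each plate with at least 5 cells and IgAN left of Control. Podocyte-like cells lie near the top of both scales, at 99.8% and 99.2% over all their cells, and mesangial-like cells at 50.9% and 1.43%.

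Lamb2 was highest in smooth muscle- or renin-like cells, at 946 CPM, and in podocyte-like cells, at 878 CPM, with the muscle class higher on 3 of 3 plates. Podocyte-like cells were 3.57-fold above endothelial-like cells on 7 of 7 plates. In podocyte-like cells Lamb2 had 705, 934 and 345 CPM on the IgAN plates, against 728, 979, 838 and 1077 CPM on the Control plates. These overlapped, and the log2 difference was -0.26. In endothelial-like cells Lamb2 ran from 148 through 205 to 301 CPM on the IgAN plates, and had 312, 333, 207.5 and 279 CPM on the Control plates, a log2 difference of -0.45 with overlapping plates.

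Parietal epithelial-like cells had 204 CPM of Lamb2 in IgAN and 366 CPM in Control. Here the IgAN plates, from 1.57 through 232 to 291 CPM, lay below the Control plates of 338 to 396 CPM, but the log2 difference of -0.84 was under 2-fold, so it was not called.

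Lamb1 was highest in mesangial-like cells, at 415 CPM, 3.02-fold above endothelial-like cells on 9 of 9 plates. The distal tubule or collecting duct class came next, at 237 CPM, and was below mesangial-like cells on 5 of 6 plates. Its plates ran from 2.85 to 1076 CPM. Parietal epithelial-like cells followed, at 166 CPM. In mesangial-like cells Lamb1 ran from 263 through a median of 373 to 501 CPM on the IgAN plates, and had 317, 722 and 477 CPM on the Control plates. In endothelial-like cells it ran from 69.9 through 101 to 185 CPM on the IgAN plates, and had 113, 182, 154 and 235 CPM on the Control plates. The log2 differences, -0.37 and -0.66, came with overlapping plates. Cells with both beta chains were not rare: of 1533 endothelial-like cells 157 had at least 10 reads of both, 216 of Lamb1 alone, 447 of Lamb2 alone and 713 of neither, and the Spearman correlation over these cells was -0.01.

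Lamc1, the gamma chain common to most laminins, had similar levels in the glomerular classes. It had 183 CPM in smooth muscle- or renin-like, 183 CPM in endothelial-like, 180 CPM in mesangial-like, 136 CPM in podocyte-like and 115 CPM in parietal epithelial-like cells, and each class was above the next on 2 of 3, 6 of 9, 3 of 6 and 3 of 6 shared plates. In podocyte-like cells Lama5, Lamb2 and Lamc1 together reached 10 reads in 57 of 183 cells (31.1%), while Lama5, Lamb1 and Lamc1 did so in 0. In mesangial-like cells Lamc1 had 215 CPM in IgAN and 111 CPM in Control, with IgAN plates from 45.6 through 180 to 488 CPM and Control plates of 55.3, 140.3 and 151 CPM. These overlapped, and the log2 difference of 0.95 was not called.

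Relative to the beta chains, Lamc1 was higher in endothelial-like IgAN cells. Per kb, its ratio to Lamb1 and Lamb2 together was 0.51 in IgAN (0.40 to 0.83 over 6 plates) and 0.29 in Control (0.27 to 0.33 over 4 plates), and the plates did not overlap. Lamc1 itself had a log2 difference of 0.30 with overlapping plates, as had Lamb1 at -0.66 and Lamb2 at -0.45. This ratio was picked from several chain ratios read in each class. How often such ratios had plates apart was not counted, and the call rule was not applied to ratios.

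The proportion of the beta chains also varied among the endothelial-like clusters, and was most one-sided in cluster 10 next to them. Per kb, Lamb2 made up 98.4% of the pair in cluster 10, 94.5% in endothelial-like cluster 13, led by Igfbp3, Fbln5 and Tgfb2, and 69.1% to 82.1% in endothelial-like clusters 0, 1, 2, 3 and 15. Cluster 10, 55 IgAN and 58 Control cells led by Tspan8, Ssu2, Thbs2, Fbln2 and P2ry2, stayed unnamed, since its endothelial markers as a set did not exceed the level in other cells. It had Pecam1 at 2248 CPM and Eng at 2903 CPM, near the 1951 and 3442 CPM of endothelial-like cells. Flt1, Cdh5, Tie1, Egfl7 and Esam were also near, with Tie1 at 926 CPM against 933 CPM. Kdr was lower, at 140 CPM against 1536 CPM, as was Emcn, at 1823 CPM against 3243 CPM. Ehd3, a gene of glomerular endothelium, was at 218 CPM against 2919 CPM. Among IgAN cells Lamb1 had 21.1 CPM in cluster 10 and 113 CPM in the endothelial-like class, and among Control cells 5.17 CPM in cluster 10 and 178 CPM in the endothelial-like class. On IgAN plates 313, 316 and 318, with at least 5 cells of cluster 10, its Lamb1 was at 0.321, 8.34 and 5.08 CPM. The summed 21.1 CPM was thus lifted by plates with fewer of its cells. Lamb1 was lower in cluster 10 on 7 of 7 plates with at least 5 of its cells, and Lamb2 was higher on 6 of 7. Lamb2 made up 98.0% to 100.0% of the pair per kb on these plates, against 64.5% to 81.8% in endothelial-like cells. Col4a1 and Col4a2 were lower in cluster 10 on 6 of 7 plates. The cluster was compared after its values were seen, and the members took no part in the clustering.

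**Figure D5:**
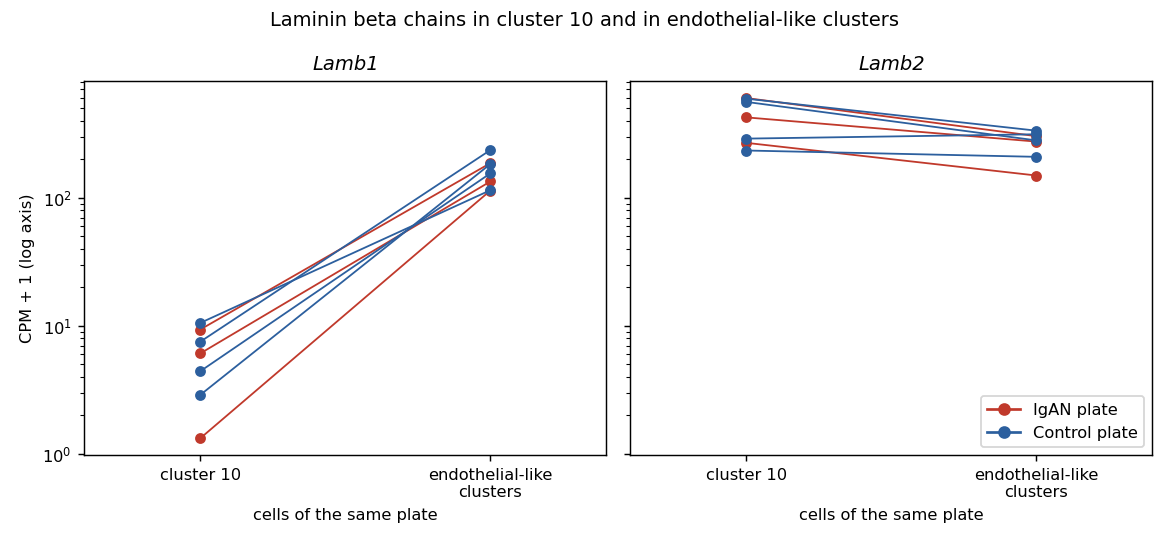
Lamb1 (left) and Lamb2 (right), as CPM plus 1 on a log axis, in unnamed cluster 10 and in the endothelial-like cells of the same plate, joined by a line for each of 7 plates and coloured by group. Lamb1 is lower in cluster 10 on 7 of 7 plates and Lamb2 higher on 6 of 7.

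Other genes of basement membrane assembly were read from a list of 42. Of these, 29 were measured in podocyte-like cells, and 3 rose in IgAN and 0 fell, beside 147 higher and 471 lower (6.45%) of all 9576 measured genes. The median log2 difference of the list was 0.13, against -0.06 for all measured genes. Mmp2, a gelatinase that degrades collagen, had 508 CPM in IgAN (355 to 1002 over plates) and 73.7 CPM in Control (66.8 to 88.1), a log2 difference of 2.77. Loxl2, which cross-links collagen, had 413 CPM in IgAN and 134 CPM in Control, and Pxdn, the peroxidase that joins type IV collagen by sulfilimine bonds, 313 CPM in IgAN and 151 CPM in Control. The most abundant genes were not called: Sparc, a collagen-binding protein, had 4248 CPM in IgAN and 3856 CPM in Control, P4hb, a subunit of prolyl hydroxylase, 1646 CPM in IgAN and 1607 CPM in Control, and Timp3, a protease inhibitor, 3221 CPM in IgAN and 2946 CPM in Control. The laminin receptors Dag1 and Itga3 had 2888 and 1948 CPM in IgAN, against 1924 and 1478 CPM in Control, and neither was called. The fibroblast and parietal epithelial markers given above were also higher in podocyte-like IgAN cells, and their part in these values was not tested.

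In endothelial-like cells 33 of the 42 genes were measured, 0 rose and 1 fell, beside 79 higher and 63 lower (1.46%) of all measured genes. The median log2 difference of the list was -0.20, against 0.02 for all measured genes. The one that fell was Bcam, a receptor for the Lama5 chain, with 377 CPM in IgAN (256 to 504 over plates) and 793 CPM in Control (768 to 906), a log2 difference of -1.07. The linkers Nid2 and Hspg2 had 292 and 543 CPM in IgAN, against 460.03 and 383 CPM in Control, and neither was called. In mesangial-like cells 31 were measured and 0 were called, beside 2.55% of all measured genes, with a median of -0.20 against 0.01. There Nid1, which links laminin to type IV collagen, had 1031 CPM in IgAN and 1074 CPM in Control, the protease Adamts1 1585 CPM in IgAN and 1101 CPM in Control, and Bcam 676 CPM in IgAN and 1199.5 CPM in Control.

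In parietal epithelial-like cells 36 of the 42 were measured, and 4 rose in IgAN and 0 fell, beside 221 higher and 164 lower (3.54%) of all 10862 measured genes. The median log2 difference of the list was -0.01, with 18 of 36 above 0, against 0.08 for all measured genes. Among the 4 were Loxl2, Mia3, a factor for export of collagen from the cell, and Mmp2. Mmp2 had 589 CPM in IgAN (231 to 1061 over plates) and 200 CPM in Control (0.944 to 213). Loxl2 had 35.3 CPM in IgAN and 1.31 CPM in Control, and Mia3 77.6 CPM in IgAN and 7.02 CPM in Control. Endothelial markers summed to 565 CPM in IgAN and 212 CPM in Control in this class. In proximal tubule-like cells Col18a1 rose to 93.4 CPM in IgAN, against 40.5 CPM in Control, and Colgalt1, which adds sugar to collagen, fell to 28.9 CPM in IgAN, against 82.2 CPM in Control. In the distal class Pxdn rose to 49.4 CPM in IgAN, against 1.70 CPM in Control, and in B- or plasma-like cells Colgalt1 fell to 2.69 CPM in IgAN, against 139 CPM in Control. Of the list, 28 genes were measured in the proximal, 29 in the distal and 14 in the B- or plasma-like class, where 4.4%, 5.66% and 10.4% of all measured genes were called. Endothelial markers were also higher in tubule cells of IgAN. They summed to 1284 CPM in IgAN (232 to 2981 over plates) and 211 CPM in Control (150.1 to 311) in proximal tubule-like cells, and to 3545 CPM in IgAN (417 to 7041) and 788 CPM in Control (487 to 1003) in the distal class. Their part in these values was not tested. None of the list was called in the macrophage- or dendritic-like class, with 22 measured, or in the T- or NK-like class, with 25.

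The genes most like each member were found by Pearson correlation of log2 CPM over 80 sums of 1 class on 1 plate, among 10078 genes with at least 50 CPM in a class. These points share plates, depth and classes, so the values describe likeness only. Col4a1 and Col4a2 were each other's most alike gene (r = 0.94), followed by Adamts1 for both (0.89 and 0.91). Col4a3 and Col4a4 were likewise each other's most alike gene (0.93), followed by Dcdc2a for Col4a3 (0.84) and Kank1 for Col4a4 (0.91). The start regions shown above were chosen for this likeness, which is of pattern over classes and plates and not of level. Col4a5 was most like Enpep (0.87), a peptidase of podocytes and proximal tubule, and Col4a6 was too low to be searched. Lama5 was most like Tns2 (0.93) and Bcam (0.92), Lamb1 like Tns1 (0.86), Lamb2 like Ehd2 (0.90) and Lamc1 like Tgfb1i1 (0.81).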

How the data were processed

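Kidney glomerular single cells were measured by Smart-seq2. The authors deposited counts: whole reads per gene, not normalized, for 46517 names in 3143 cells. Per the submitters' processing notes, GRCm38 (mm10), Subread 1.4.6-p5, featureCounts, TopHat2 2.1.1 and SAMtools 0.1.18 were used. Which annotation and strand setting were used is not given in the sources used here. Without strand, reads of overlapping genes cannot be told apart: C430014B12Rik covers 563 exon bases of Col4a3 on the other strand, and Col4a1 and Col4a2 share 22. Reads carry no molecular identifiers, so exact Poisson and Clopper-Pearson intervals at 95% cover counting error only, and a count of 0 allows the upper bound of that interval.

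Counts were scaled to 100000 reads per cell and log transformed. With the members and 42 other basement membrane genes left out, 2000 variable genes, 30 principal components, 15 neighbours and Leiden resolution 1 gave 25 clusters. They were named from 98 markers of 13 classes, each name needing 3 markers in 25% of cells. No doublet caller was run. Levels per kb use exon lengths of GENCODE vM21, which matched 42052 names, and assume even coverage. The call rule was also run on simulated Poisson counts of endothelial-like cells only. That run does not cover classes with few cells on a plate, and its outcome is not reported here. With each group 1 sample, no test was run between IgAN and Control, and the spread over plates with at least 5 cells is given.

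The members, lists and rules were chosen with earlier results of these data known. Named genes were all members, called genes of the 42 and the 2 most abundant of each of its subgroups (some of these are not described, and 1 called gene is not reported here), and the 3 genes most like each member. Alternatives covered scaling, pseudocount, low filter, plate minimum, fold limit, clustering, marker-score classes, cells low in other markers, depth and leaving out each plate. Endothelial-like cells without cluster 3, the comparisons of clusters 10 and 13 and lymphocytes without each plate were chosen after seeing the data. Tools were leidenalg 0.10.2, igraph 0.11.9, scikit-learn 1.9.0, scipy 1.17.1, pandas 2.3.3, numpy 2.4.6 and matplotlib 3.10.9 under Python 3.11.15.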

Additional observations from a re-analysis of the deposited data

Results flagged for a closer look

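Of 83 sets of plates of 1 gene, class and group, 8 held a plate that stood apart from the others by Dixon's criterion on log2 of CPM plus 1, and chance gives about 1 in 20. IgAN plate 325 held 4 of the 8. Of these, 3 were in leukocytes: Lama5 at 93.3 CPM in macrophage- or dendritic-like cells, against 2.66 to 8.42 CPM on the other plates, Lama5 at 189 CPM in T- or NK-like cells, against 2.12 to 13.3 CPM, and Lamb2 at 209 CPM in T- or NK-like cells, against 2.99 to 8.65 CPM. The T- or NK-like cells of that plate were 11, and held 2982 CPM of endothelial and 606 CPM of podocyte markers. Plate 325 also had 1.57 CPM of Lamb2 in its 6 parietal epithelial-like cells, against 177 to 291 CPM on the other IgAN plates.

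Mesangial-like Lamb2 had 119 CPM on IgAN plate 315, with 10 cells, against 247 to 344 CPM on the others. Proximal tubule-like Col4a2 had 19.0 CPM on IgAN plate 322, with 6 cells, against 134 to 253 CPM. Distal tubule- or collecting duct-like Col4a3 had 312 CPM on IgAN plate 316, with 6 cells, against 70.4 to 104 CPM. Endothelial-like Col4a3 had 9.32 CPM on Control plate 317, with 155 cells, against 15.1 to 15.7 CPM on the other Control plates, and still lay above every IgAN plate.

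Cluster 16, which no comparison used, held 66 IgAN and 0 Control cells led by Kap, Spp1, Cxcl10, Car15 and Umod. It had 571 CPM of Col4a1 and 690 CPM of Col4a2.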

How the results depend on the processing

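Log2 differences of members were recomputed under the alternatives. Of these, 1568 counted as the same, 34 moved, 23 gained a call, 7 lost one and 0 reversed. A called difference was the same if it stayed called. An uncalled one was the same if it stayed uncalled and shifted less than the mean standard deviation over plates. Most had no call to keep, and shifts within that limit could be large. Uncalled Col4a1 in podocyte-like cells went from 1.81 to 0.68 without plate 316. Endothelial Col4a3 ranged from -2.18 to -1.27 over 26 alternatives and lost its call in 2. Podocyte Col4a2 ranged from 1.12 to 2.21 over 25 and lost it in 5. The number of members called was 1 in podocyte-like, 0 in mesangial-like and 1 in endothelial-like cells, and 2 over all classes compared. With no low filter it was 2 in endothelial-like cells and 4 over all classes. With a 50 CPM filter it was 0 in podocyte-like and endothelial-like cells and over all classes, since fewer genes were tested. With plates of at least 10 cells it was 1 over all classes, as too few podocyte plates remained. With plates of at least 2 cells it was 0 in podocyte-like cells and 1 over all. With 3000 variable genes it was 2 in podocyte-like cells. With classes by marker score it was 0 in podocyte-like and endothelial-like cells and 0 over all. In cells low in other main markers it was 1 in mesangial-like cells and 5 over all. Leaving out each plate gave 1 to 2 in podocyte-like, 0 to 1 in mesangial-like and 1 to 1 in endothelial-like cells, and 2 to 6 over all; fewer plates must then lie apart. Where no cause is given, the cause was not tested. No paired analysis was possible because the labels give no replicate numbers shared between the groups. Classes of 5 to 10 cells on a plate, and podocyte-like IgAN cells in particular, limit what could be called.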
